A study of Mus musculus with 2 samples.

Results

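Matricellular proteins are secreted into the extracellular matrix, where they act less as scaffold than as regulators of how cells grip the matrix and respond to growth factors. The set described here holds 7 genes of the 34144 listed in both libraries, chosen by symbol. They are Postn, which encodes periostin, Tnc, which encodes tenascin-C, Thbs1 and Thbs2, which encode thrombospondins, Sparc, which encodes osteonectin, Cthrc1, which encodes a collagen triple helix repeat protein, and Fn1, which encodes fibronectin. All 7 symbols were found once in each library.

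In bone, osteonectin binds collagen and calcium and is among the most abundant non-collagen proteins of mineralised matrix. Periostin and tenascin-C bind fibronectin and are known from periosteum, tendon and healing tissue, where they bridge integrins to collagen. Thrombospondins modulate integrin and growth factor signals, and thrombospondin 1, which also activates latent TGF-beta, is stored in platelets. Cthrc1 is secreted by osteoblasts and is known in mice to favour bone formation.

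The data are 2 single-cell RNA libraries of cells from mouse long-bone marrow, 1 from old and 1 from adult C57BL6 wild-type mice, depleted of blood-forming cells by magnetic separation before sorting. Age is labelled as a word only, and the sources used here give neither the number of mice nor their sex nor any pooling. With 1 library per age there is no replicate, so no test was made: every interval below covers counting error alone, and a difference of age cannot be told apart from a difference between these libraries. After filtering, 18975 old cells with a median of 7736 UMIs (unique molecular identifiers, each counting 1 captured transcript) and 22403 adult cells with a median of 7139 UMIs remained.

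Cell types were rebuilt from marker genes, with the 7 genes left out of the clustering. The osteocalcin osteoblast-like cluster (77 old and 1151 adult cells) carried the osteoblast marker Bglap at 27263 CPM (UMIs of the gene per 1000000 UMIs of those cells) in old and 26942 CPM in adult cells. The osteopontin osteolineage-like cluster (682 old and 209 adult cells) had little Bglap, 302 CPM in old and 632 CPM in adult cells. It was rich in Spp1, which encodes osteopontin, at 49683 CPM in old and 33651 CPM in adult cells, and in the collagenase gene Mmp13, at 5868 and 7249.8 CPM. CAR-like cells (14267 old and 12701 adult), named for CXCL12-abundant reticular cells, had Lepr at 2628 CPM in old and 2258 CPM in adult cells. Pericyte or smooth muscle-like cells (217 old and 494 adult) had the contractile gene Acta2 at 1862 CPM in old and 1601 CPM in adult cells. Arterial-like endothelial cells (268 old and 193 adult) had the endothelial cadherin gene Cdh5 at 866 CPM in old and 1127 CPM in adult cells. Their old cells were also led by immunoglobulin genes (Igkc at 3432 CPM), but old cells of other types held these too. Igkc was 2120 CPM in old CAR-like, 1462 CPM in old osteopontin and 2420 CPM in old pericyte or smooth muscle-like cells. Plasma cell-like cells, which make immunoglobulins, had 1358 old and 0 adult cells, and their part in these values was not tested. Sinusoidal-like endothelial cells had 12 old cells, too few for a level, and 383 adult cells.

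Some clusters held cells of nearly 1 library. A Wif1-Alpl cluster, near CAR-like cells in its markers and left unnamed, had 45 old and 2358 adult cells. A Col1a1-Bglap cluster had 0 old and 1822 adult cells, and carried osteolineage and CAR markers at nearly equal scores. Vascular and blood markers were also found in it: the pericyte marker Rgs5 in 55.9%, the megakaryocyte marker Pf4 in 41.3% and Cdh5 in 24.3% of its cells. In adult osteocalcin cells the shares were 11.6%, 19.4% and 5.39%, at a median depth of 25417 against 6526 UMIs. The parts of mixed cells and free RNA in the levels of this cluster were not tested. The CAR-like clusters were also nearly separate by library, apart from an interferon-led one with 265 old and 219 adult cells. So were the sub-clusters joined as arterial-like cells, 1 with 265 old and 13 adult cells and another with 3 old and 180 adult cells. A total of 152 barcodes occurred in both libraries, 108 of them among the kept cells.

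RNA free in the suspension and mixed cells can both give UMIs in cells that do not make a gene. Erythroid-like cells, which should make none of the osteoblast genes, held such UMIs. A Col1a1 UMI was found in 39.6% of the 937 old and 99.1% of the 217 adult ones, at median depths of 52579 and 7573 UMIs. The parts of free RNA and mixed cells in these were not tested. Sparc averaged 2.67 UMIs per old and 10.9 UMIs per adult erythroid-like cell. The matching means were 4.16 and 5.99 UMIs for Tnc, 0.334 and 0.300 for Thbs1, 0.239 and 0.212 for Postn, and 0.0299 and 0.355 for Fn1. For Thbs2 they were 0.0598 and 0.0922 UMIs, and for Cthrc1 0.00320 and 0.0829 UMIs. A mean per cell at or under these is called background below, as a label for that comparison only. Some cells held less: Tnc averaged 0.336 UMIs per old and 0.627 UMIs per adult arterial-like cell. How much of any level was free RNA was not tested.

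The cells that held most UMIs differed among some of the 7 genes. In the old library 79.8% of Postn UMIs came from osteopontin osteolineage-like cells, 91.5% of Cthrc1 UMIs from osteocalcin osteoblast-like cells, and 67.8% of Tnc UMIs from CAR-like cells. In the adult library the osteopontin cells held 13.1% of Postn UMIs, the osteocalcin cells 75.5% of Cthrc1 UMIs, and the CAR-like cells 43.0% of Tnc UMIs. CAR-like cells also held 81.1% of old and 50.2% of adult Thbs2 UMIs, 57.1% of old Sparc and 55.3% of old Thbs1 UMIs. Osteocalcin cells held 55.5% of adult Sparc, 37.6% of adult Thbs1 and 39.5% of adult Fn1 UMIs, and osteopontin cells 67.9% of old Fn1 UMIs. The Wif1-Alpl cluster held 51.4% of adult Postn and 35.9% of adult Tnc UMIs. These shares depend on how many cells of each type were captured as well as on their levels.

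**Figure D1:**
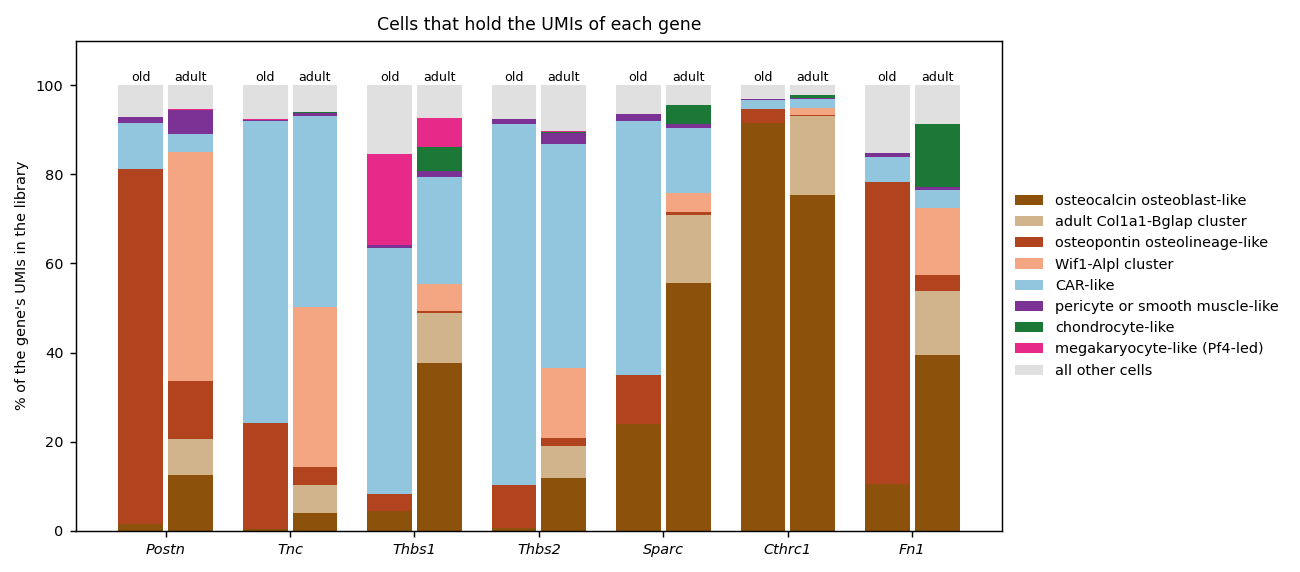
Each bar divides all UMIs of 1 gene in 1 library among cell types, in percent, with the old library left of the adult one. Osteopontin osteolineage-like cells fill 79.8% of the old Postn bar, and osteocalcin osteoblast-like cells 91.5% of the old and 75.5% of the adult Cthrc1 bar.

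**Figure D2:**
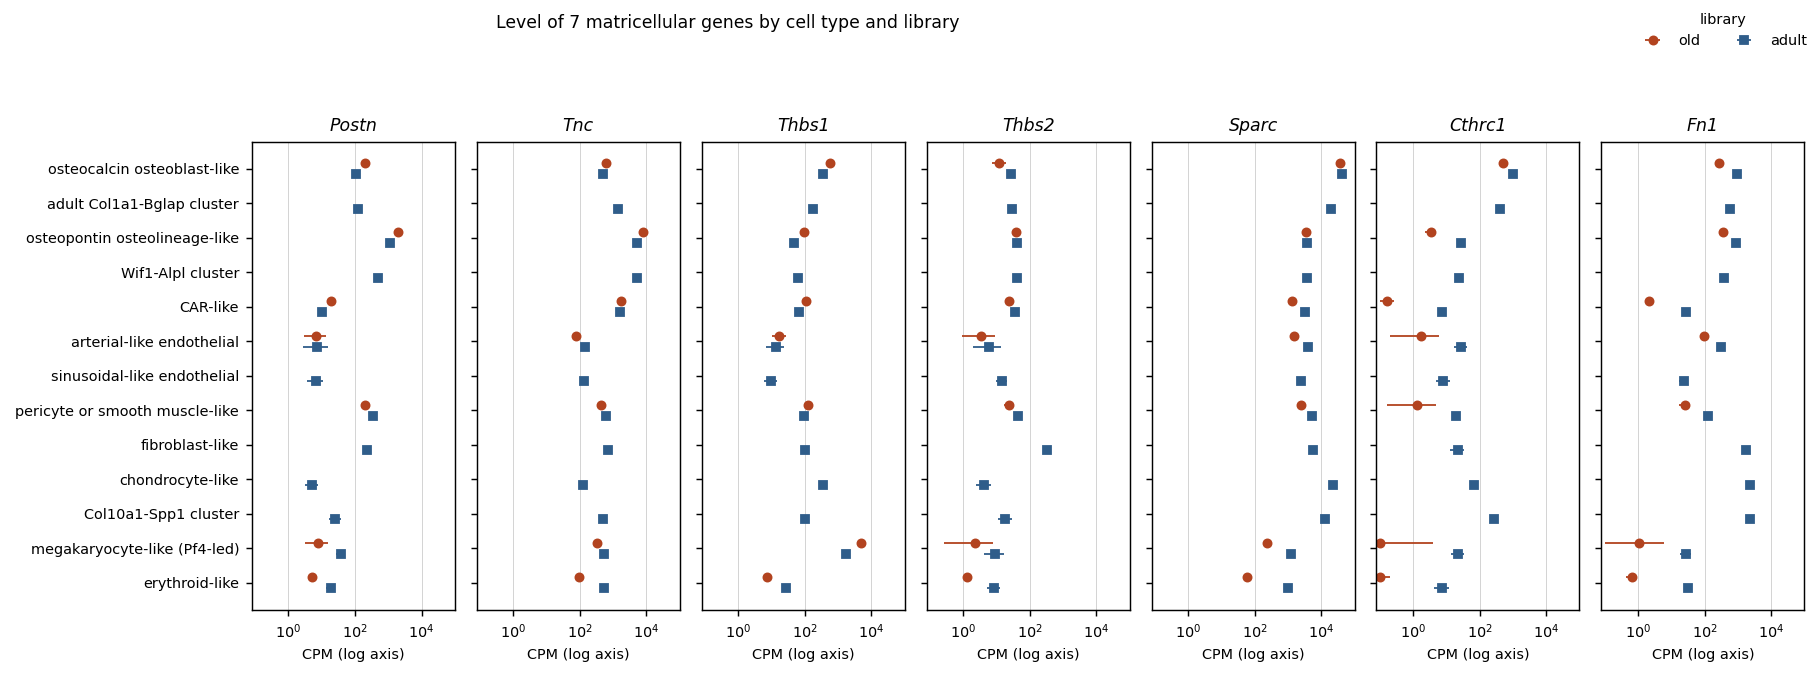
Level of each gene in CPM, on a log axis, in 13 cell types, with old (circles) above adult (squares). Bars are exact Poisson 95% intervals and are often smaller than the point, types with fewer than 50 cells in a library are not drawn, and levels under 0.1 CPM are drawn at 0.1. Postn is highest in osteopontin osteolineage-like cells of both libraries, Tnc in those cells of the old library, Sparc and Cthrc1 in osteocalcin osteoblast-like cells, and Thbs1 in megakaryocyte-like cells.

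Among types with at least 50 cells, Postn was highest in osteopontin osteolineage-like cells of both libraries. Its level there was 2012 CPM (95% interval 1982 to 2042) in old and 1135 CPM (95% interval 1097 to 1175) in adult cells, a log2 ratio of old over adult of 0.83 (95% interval 0.77 to 0.88). A UMI was found in 97.1% (exact binomial 95% interval 95.5 to 98.2) of the old and 88.5% (exact binomial 95% interval 83.4 to 92.5) of the adult cells of this cluster, against 6.83% of old and 5.07% of adult erythroid-like cells. The median depths of the osteopontin cells were 11141 UMIs in the old and 11614 UMIs in the adult library. The median old cell had 17 Postn UMIs and the median adult cell 8. The 10% of cells with the most Postn held 34.9% of its UMIs in old and 44.4% in adult osteopontin cells.

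Next in the order of Postn levels came the adult Wif1-Alpl cluster with 503 CPM. Pericyte or smooth muscle-like cells had 194 CPM (95% interval 172 to 218) in old and 343 CPM (95% interval 325 to 362) in adult cells, and there the old level was the lower one. Adult cells of a Cenpf-Top2a cluster of dividing osteolineage-like cells had 266 CPM (95% interval 240 to 293) and adult fibroblast-like cells 228 CPM (95% interval 196 to 263), with overlapping intervals. Osteocalcin osteoblast-like cells had 194 CPM (95% interval 174 to 216) in old and 110 CPM (95% interval 106 to 114) in adult cells. The old pericyte and old osteoblast levels did not differ beyond their counting intervals. CAR-like cells had 19.6 CPM in old and 10.3 CPM in adult cells, a mean per cell at or under that of erythroid-like cells. Arterial-like cells, with 8 old and 6 adult UMIs, were also at background.

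In the old library Tnc had its highest level in the same osteopontin cells. Their level was 7861 CPM (95% interval 7802 to 7921) in old and 5094 CPM (95% interval 5012 to 5177) in adult cells. The log2 ratio was 0.63 (95% interval 0.60 to 0.65). Every old cell of this cluster had at least 3 Tnc UMIs, and the median was 86 in old and 57 in adult cells. The old Mepe-Dmp1 cluster of 70 osteolineage-like cells, led by genes known from osteocytes and with a CAR score (0.587) above its osteolineage score (0.543), had 5277 CPM (95% interval 5039 to 5523). The adult Wif1-Alpl cluster had 5142 CPM (95% interval 5114 to 5169.9). The adult Wif1-Alpl and adult osteopontin levels did not differ beyond their counting intervals, so no highest type can be named for Tnc in the adult library. Osteocalcin osteoblast-like cells had 603 CPM (95% interval 566 to 641) in old and 508 CPM (95% interval 499 to 516) in adult cells, with a median of 3 Tnc UMIs per cell in both. There the erythroid-like mean equalled 31.1% of the old and 47.3% of the adult mean.

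Unlike Postn, Tnc had a mean per cell above background in CAR-like cells, with 1688 CPM in old and 1628 CPM in adult cells, a log2 ratio of 0.05. The median CAR-like cell had 6 Tnc UMIs in old and 7 in adult cells, beside erythroid-like means of 4.16 and 5.99 UMIs. The erythroid-like mean equalled 31.0% of the old and 48.3% of the adult CAR-like mean. Within the CAR-like cells Tnc varied by cluster more than by library. A cluster led by the chemokine gene Cxcl13, 1644 of whose cells were old and 20 adult, had 4438 CPM, and a cluster led by the complement gene C3, with 3951 old and 24 adult cells, had 723 CPM. Across adult-dominated CAR-like clusters the range was 1029.9 to 2076 CPM. In the interferon-led cluster that both libraries filled, the log2 ratio of Tnc was -0.19 (95% interval -0.25 to -0.12).

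The Cxcl13-led cluster of deep cells also had more Postn than any other CAR-like cluster, 106 CPM, with Spp1 at 2673 and the alkaline phosphatase gene Alpl at 424 CPM. The Wif1-Alpl cluster, nearly all adult, had 502 CPM of Postn and 5154 CPM of Tnc beside 1551 CPM of Spp1 and 1235 CPM of Alpl. A second, shallow Cxcl13-led cluster of 829 old and 50 adult cells, with 4129 CPM of Spp1, had 74.0 CPM of Postn and 1439.7 CPM of Tnc. Among the CAR-like clusters the one with the most Tnc was thus also the one with the most Postn. Among CAR-like clusters the highest Thbs1 was 128 CPM, in the Lrrtm4-led cluster with 885 old and 74 adult cells.

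**Figure D3:**
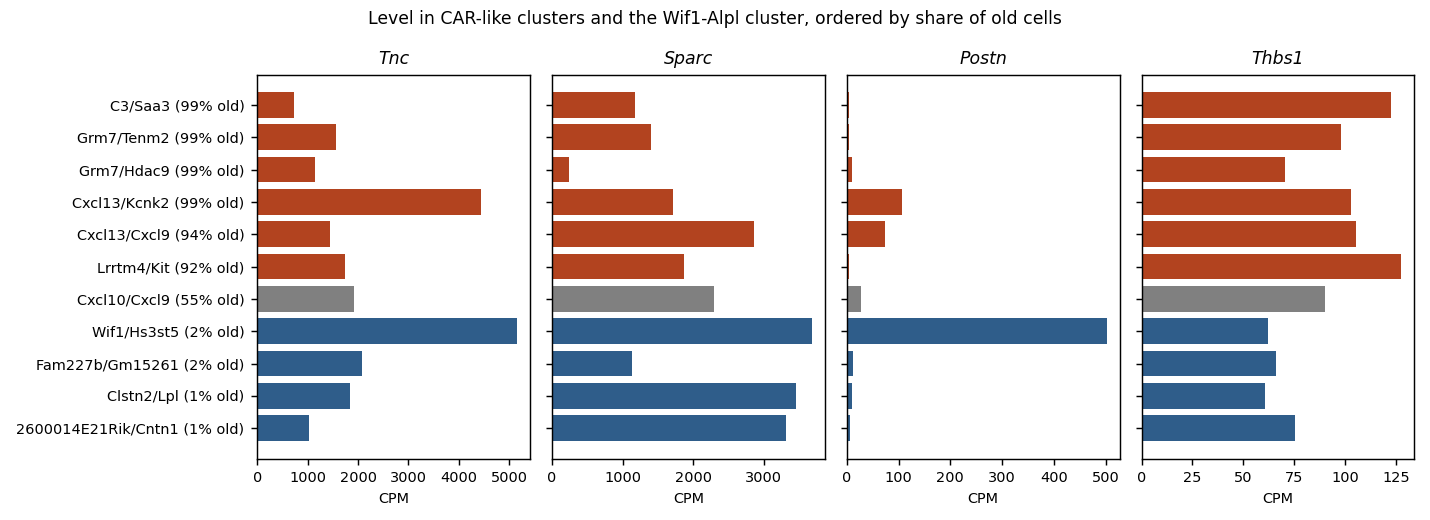
CPM of 4 genes in the 10 CAR-like clusters and the Wif1-Alpl cluster, each named by its leading genes, ordered from mostly old (top) to mostly adult cells. Red bars hold over 90% old cells, blue bars under 10%, and grey is the interferon-led cluster. Tnc and Postn reach their highest values in the Wif1-led and 1 Cxcl13-led cluster, and Thbs1 spans 60.5 to 128 CPM.

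In endothelial cells Tnc and Postn were near background. The endothelial-like class as a whole had 641 CPM of Tnc in old and 665 CPM in adult cells. Most of this came from sub-clusters that also carried the CAR genes Lepr and Cxcl12 (69 old and 399 adult cells), with 1495 CPM in old and 1545 CPM in adult cells. Arterial-like cells had 77.1 CPM in old and 146 CPM in adult cells, with means per cell under those of erythroid-like cells. Adult sinusoidal-like cells had 133 CPM. Pericyte or smooth muscle-like cells had 423 CPM in old and 597 CPM in adult cells. Their means of 2.87 and 4.68 UMIs per cell were also under those of erythroid-like cells.

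Of the 7 genes, 4 (Postn, Tnc, Thbs2 and Sparc) had a window in the RefSeq promoter table. Those of Postn and Tnc are shown because these genes were high in the same cells. Each runs from 250 bases before to 50 after a RefSeq transcript start on GRCm38.p6, 5′ to 3′ on the gene's strand, and capitals mark TATAAA, the TATA box letters. The Postn window is chr3:54360857-54361156 on the plus strand and the Tnc window is chr4:64046966-64047265 on the minus strand. The table has a second window for each, and those shown start nearest to a GENCODE transcript start of the same build, at 2 bases for Postn and 0 for Tnc, with 1842 and 79 bases for the others.
Postn: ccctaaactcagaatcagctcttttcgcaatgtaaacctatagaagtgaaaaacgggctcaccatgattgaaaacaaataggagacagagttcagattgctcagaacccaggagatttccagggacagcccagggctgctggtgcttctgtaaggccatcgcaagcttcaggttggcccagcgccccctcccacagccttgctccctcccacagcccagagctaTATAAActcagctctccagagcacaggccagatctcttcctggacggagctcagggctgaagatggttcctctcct
Tnc: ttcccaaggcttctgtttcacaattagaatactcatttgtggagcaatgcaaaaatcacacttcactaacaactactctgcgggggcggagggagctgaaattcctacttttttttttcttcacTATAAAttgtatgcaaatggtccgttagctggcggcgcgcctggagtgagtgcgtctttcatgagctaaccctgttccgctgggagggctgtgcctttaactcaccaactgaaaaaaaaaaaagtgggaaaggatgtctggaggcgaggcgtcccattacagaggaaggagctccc
TATAAA lay at position -26 from the start in Postn and at position -126 in Tnc. The other Postn window has 0 matches, and the other Tnc window, which overlaps the one shown, has the same TATAAA at position -205 from its own start. Only the exact letters were sought. Near forms, such as tatataag closer to the start in that other Tnc window, were not counted. On both strands TATAAA occurs in 13.62% of 32851 promoter windows of this length. The AP-1 letters TGANTCA, found in 7.808% of the windows, and the RUNX letters TGTGGT, found in 16.76%, are in none of these 4 windows. A match here is a description of letters and no evidence of binding.

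Sparc had 266492 UMIs in old and 2129995 UMIs in adult cells. Its highest level was in osteocalcin osteoblast-like cells, 37208 CPM (95% interval 36919 to 37498) in old and 41188 CPM (95% interval 41114 to 41263) in adult cells. The log2 ratio there was -0.15, and in osteopontin cells, with 3426 CPM in old and 3791 CPM in adult cells, it was also -0.15. Adult chondrocyte-like cells had 22394 CPM, the adult Col1a1-Bglap cluster 20020.5 CPM, and a Col10a1-Spp1 cluster of 162 adult cells 13197 CPM. In the osteocalcin and osteopontin clusters old and adult Sparc levels were thus close. In the Cenpf-Top2a osteolineage-like cluster Sparc had 2662 CPM in old cells, of which there were 31, and 7689 CPM in the 108 adult cells.

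In CAR-like and vascular cells, Sparc was lower in old cells. CAR-like cells had 1340.4 CPM in old and 3177 CPM in adult cells, with a log2 ratio of -1.24 (95% interval -1.25 to -1.24). Arterial-like cells had 1519 CPM in old and 4017 CPM in adult cells, with a log2 ratio of -1.40 (95% interval -1.49 to -1.32). Their sub-clusters were nearly separate by library, so this ratio compares sub-clusters as well as libraries. Pericyte or smooth muscle-like cells had 2548 CPM in old and 5404 CPM in adult cells, with a log2 ratio of -1.09 (95% interval -1.14 to -1.03).

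The same direction appeared in blood cells. Sparc was 59.3 CPM in old and 978 CPM in adult erythroid-like cells, 441 and 1853 CPM in old and adult neutrophil lineage-like cells, and 235 and 1261 CPM in old and adult megakaryocyte-like cells. The erythroid-like cells differed in median depth, 52579 UMIs in old and 7573 UMIs in adult cells. Per cell their Sparc means, 2.67 and 10.9 UMIs, were closer than the CPM. With the erythroid-like mean taken off each cell type, the log2 ratio was -0.80 for CAR-like cells, -0.83 for endothelial-like cells and -0.90 for pericytes or smooth muscle, each under 2-fold. Megakaryocyte-like cells averaged less Sparc, 0.648 UMIs in old and 2.89 UMIs in adult cells, so this subtraction may take off too much. In the interferon-led CAR-like cluster the log2 ratio was -0.90 (95% interval -0.96 to -0.84).

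A Sparc promoter window is shown for contrast with those of Postn and Tnc, since the highest Sparc level was in other cells. Of 9 GENCODE transcripts of Sparc, 1 starts within 50 bases of the start used here. The matching counts are 4 of 9 for the Postn and 1 of 4 for the Tnc window shown. The window is chr11:55420031-55420330 on the minus strand of GRCm38.p6 (RefSeq), and capitals mark ACCACA, the reverse complement of the RUNX letters TGTGGT, at position 35 from the start.
Sparc: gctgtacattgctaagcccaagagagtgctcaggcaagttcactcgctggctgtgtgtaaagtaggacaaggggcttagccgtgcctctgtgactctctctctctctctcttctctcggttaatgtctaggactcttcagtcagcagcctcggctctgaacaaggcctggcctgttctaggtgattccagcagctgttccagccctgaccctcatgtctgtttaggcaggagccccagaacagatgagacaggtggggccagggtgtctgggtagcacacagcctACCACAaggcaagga
Neither TATAAA nor TGANTCA is in this window. The Thbs2 window, not shown, has TTTATA, the reverse complement of TATAAA, at position -126, and Thbs2 was highest in adult fibroblast-like cells. Having or lacking these letters is therefore not read as following the cells in which a gene was high.

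Most Cthrc1 UMIs lay in osteocalcin osteoblast-like cells, and a further 17.7% of the adult ones lay in the Col1a1-Bglap cluster. In osteocalcin osteoblast-like cells its level was 493 CPM (95% interval 461 to 528) in old and 981 CPM (95% interval 969.5 to 992) in adult cells. The log2 ratio was -0.99 (95% interval -1.09 to -0.89), with 844 old and 28174 adult UMIs behind it. At least 1 UMI was present in 75.3% (exact binomial 95% interval 64.2 to 84.4) of old and 91.3% (exact binomial 95% interval 89.5 to 92.9) of adult cells of this cluster, at median depths of 21342 and 25417 UMIs. The share in erythroid-like cells was 0.320% in old and 8.29% in adult cells. Thinned to 2000 UMIs per cell, which kept 75 of the 77 old and 1139 of the 1151 adult cells, the osteoblast shares were 43.8% in old and 70.3% in adult cells, so the order of the libraries was kept.

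The adult Col1a1-Bglap cluster had 402 CPM of Cthrc1 and the adult Col10a1-Spp1 cluster 266 CPM. Osteopontin osteolineage-like cells had 3.37 CPM (95% interval 2.26 to 4.84) in old and 27.0 CPM (95% interval 21.3 to 33.7) in adult cells, from 29 old and 78 adult UMIs. CAR-like cells had 19 old and 697 adult UMIs of Cthrc1, at or under the erythroid-like mean in both libraries. Over whole libraries, 0.606% of old and 17.5% of adult cells had a Cthrc1 UMI. Beside this gap, the osteocalcin cluster made up 0.406% of old and 5.14% of adult cells, and the parts of cell number and background in it were not tested.

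Fn1 was lower in the old cells of the osteocalcin and osteopontin clusters. Osteocalcin osteoblast-like cells had 268 CPM (95% interval 244 to 294) in old and 917 CPM (95% interval 906 to 928) in adult cells, a log2 ratio of -1.77 (95% interval -1.91 to -1.64). Osteopontin osteolineage-like cells had 347 CPM (95% interval 335 to 359.8) in old and 855 CPM (95% interval 821 to 889) in adult cells, a log2 ratio of -1.30 (95% interval -1.38 to -1.22). The median osteocalcin cell had 3 Fn1 UMIs in old and 12 in adult cells, and the median osteopontin cell had 1 in old and 5 in adult cells. The erythroid-like mean was at most 3.00% of any of these 4 means.

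**Figure D4:**
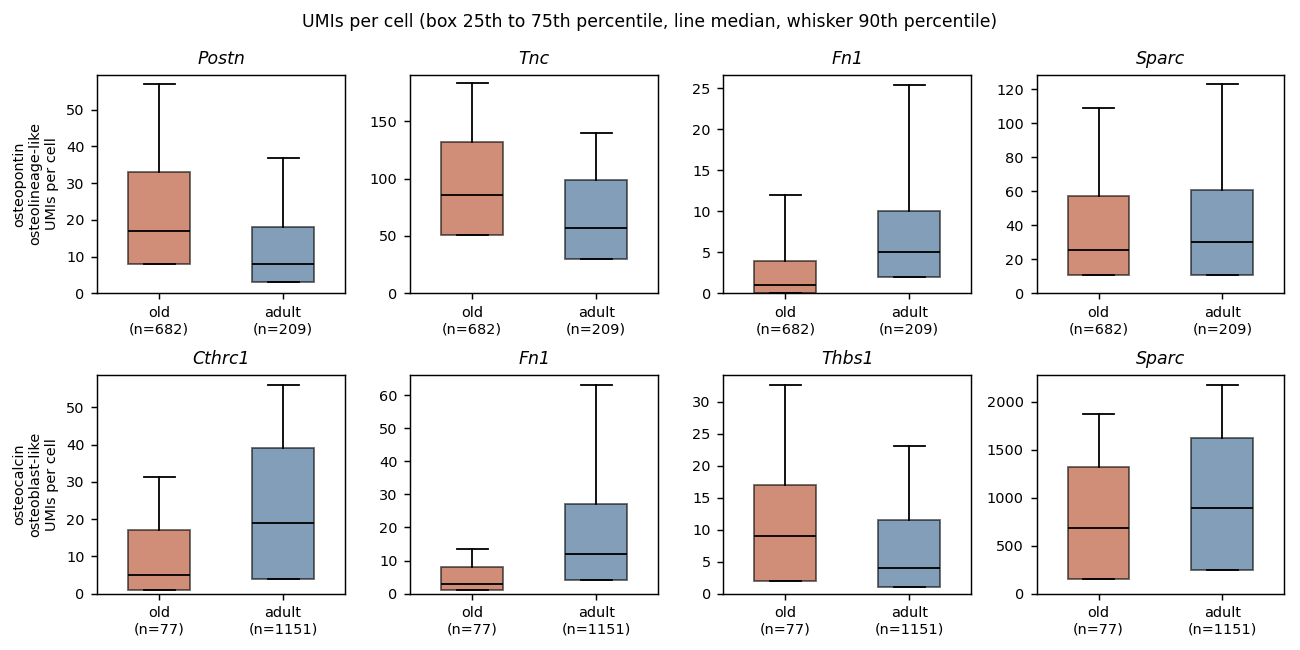
UMIs per cell in osteopontin osteolineage-like cells (top row) and osteocalcin osteoblast-like cells (bottom row), old left of adult. Boxes run from the 25th to the 75th percentile, the line is the median and the whisker ends at the 90th percentile. The Fn1 median is 1 against 5 UMIs in osteopontin cells and 3 against 12 UMIs in osteocalcin cells, and the Postn median in osteopontin cells is 17 against 8, old against adult.

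Fn1 was also lower in old vascular cells. Arterial-like cells had 96.0 CPM in old and 314 CPM in adult cells, a log2 ratio of -1.71 (95% interval -2.04 to -1.39). This ratio compares sub-clusters as well as libraries, and Fn1 was among the 10 leading genes of the mostly adult sub-cluster. Pericyte or smooth muscle-like cells had 25.1 CPM in old and 127 CPM in adult cells, from 37 and 493 UMIs, a log2 ratio of -2.34 (95% interval -2.86 to -1.86). The erythroid-like mean equalled 7.15% of the old and 26.3% of the adult arterial-like mean. Over all endothelial-like cells, of which 268 of 401 old and 193 of 1770 adult ones were arterial-like, the levels were 70.8 CPM in old and 65.7 CPM in adult cells. The adult erythroid-like mean was 80.7% of the adult endothelial-like mean.

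The highest Fn1 levels were in adult cells of types with 0 or few old cells. Adult chondrocyte-like cells, of which the old library had 0, had 2323 CPM (95% interval 2276 to 2370), and the Col10a1-Spp1 cluster, also with 0 old cells, had 2367 CPM (95% interval 2275 to 2462). These intervals overlap. Adult fibroblast-like cells had 1731 CPM. The adult Wif1-Alpl cluster had 389 CPM, whereas CAR-like cells had 2.16 CPM in old and 28.0 CPM in adult cells, both at background.

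Thbs1 was highest in megakaryocyte-like cells (330 old and 428 adult, led by the platelet factor gene Pf4), blood cells left after the depletion. Its level there was 4965 CPM (95% interval 4822 to 5112) in old and 1746 CPM (95% interval 1664 to 1830.4) in adult cells, a log2 ratio of 1.51 (95% interval 1.43 to 1.59). These cells were shallow, with median depths of 1639.5 UMIs in old and 1577 UMIs in adult cells. Neutrophil lineage-like cells had 218 CPM (95% interval 198 to 240.3) in old and 373 CPM (95% interval 321 to 429.8) in adult cells, the lower level in old.

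In osteocalcin osteoblast-like cells Thbs1 had 579 CPM (95% interval 544 to 616) in old and 349 CPM (95% interval 342 to 356) in adult cells, a log2 ratio of 0.73 (95% interval 0.64 to 0.83). In CAR-like cells it had 108 CPM in old and 66.3 CPM in adult cells, a log2 ratio of 0.70 (95% interval 0.65 to 0.74), and in osteopontin cells 94.2 CPM in old and 48.5 CPM in adult cells, a log2 ratio of 0.96 (95% interval 0.70 to 1.23). Thbs1 was thus higher in old cells in each of these, by less than 2-fold with the erythroid-like mean left in. The erythroid-like mean equalled 39.0% of the old and 59.2% of the adult CAR-like mean. It equalled 28.1% of the old and 44.7% of the adult osteopontin mean. With it taken off, the CAR-like log2 ratio was 1.28. Arterial-like cells averaged less Thbs1, 0.0746 UMIs in old and 0.0570 UMIs in adult cells, so this may take off too much. Pericyte or smooth muscle-like cells had 122 CPM in old and 95.0 CPM in adult cells. Adult chondrocyte-like cells had 354 CPM, a level whose interval overlaps that of adult osteocalcin cells.

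Thbs2 had a different place from Thbs1. Its highest level was 324 CPM (95% interval 286 to 365) in adult fibroblast-like cells, a cluster led by the lubricin gene Prg4 with 35 old and 92 adult cells. Elsewhere it stayed under the 50 CPM minimum in every type of at least 50 cells. Pericyte or smooth muscle-like cells had 24.5 CPM in old and 44.9 CPM in adult cells, and CAR-like cells had 24.5 CPM in old and 35.4 CPM in adult cells. In arterial-like cells there were 4 old and 5 adult UMIs, at background.

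A gene was counted as apart between the libraries when its CPM differed by at least 2-fold, with at least 50 CPM and 50 UMIs in the higher library. In osteopontin osteolineage-like cells 5 of the 7 genes passed the minimum, 0 were higher in old cells and 1, Fn1, was lower, where 2.39% of 3977 genes were higher and 2.64% lower. In osteocalcin osteoblast-like cells 6 passed, 0 were higher and 1, again Fn1, was lower, where 1.35% of 3041 genes were higher and 1.64% lower. In CAR-like cells 3 passed, 0 were higher and Sparc was lower, where 2.78% of 4180 genes were higher and 1.75% lower. In the interferon-led CAR-like cluster 3 passed and 0 were apart, where 2.47% of 4212 genes were higher and 1.64% lower.

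Among vascular cells, pericyte or smooth muscle-like cells had 5 genes past the minimum, with 0 higher and 2 lower (Sparc and Fn1), where 3.25% of 4367 genes were higher and 2.54% lower. The endothelial-like class had 3 past the minimum, with 0 higher and Sparc lower, where 5.22% of 4632 genes were higher and 3.26% lower. Its arterial-like cells had 3 past the minimum, with 0 higher and 2 lower (Sparc and Fn1), where 3.65% of 4189 genes were higher and 1.91% lower. In megakaryocyte-like cells 3 passed, with 1 higher (Thbs1) and 1 lower (Sparc, itself at the background mean), where 3.74% of 2672 genes were higher and 7.07% lower. With so few genes past the minimum, a count of 1 or 2 is given as it stands, and nothing is read from its distance to those shares.

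**Figure D5:**
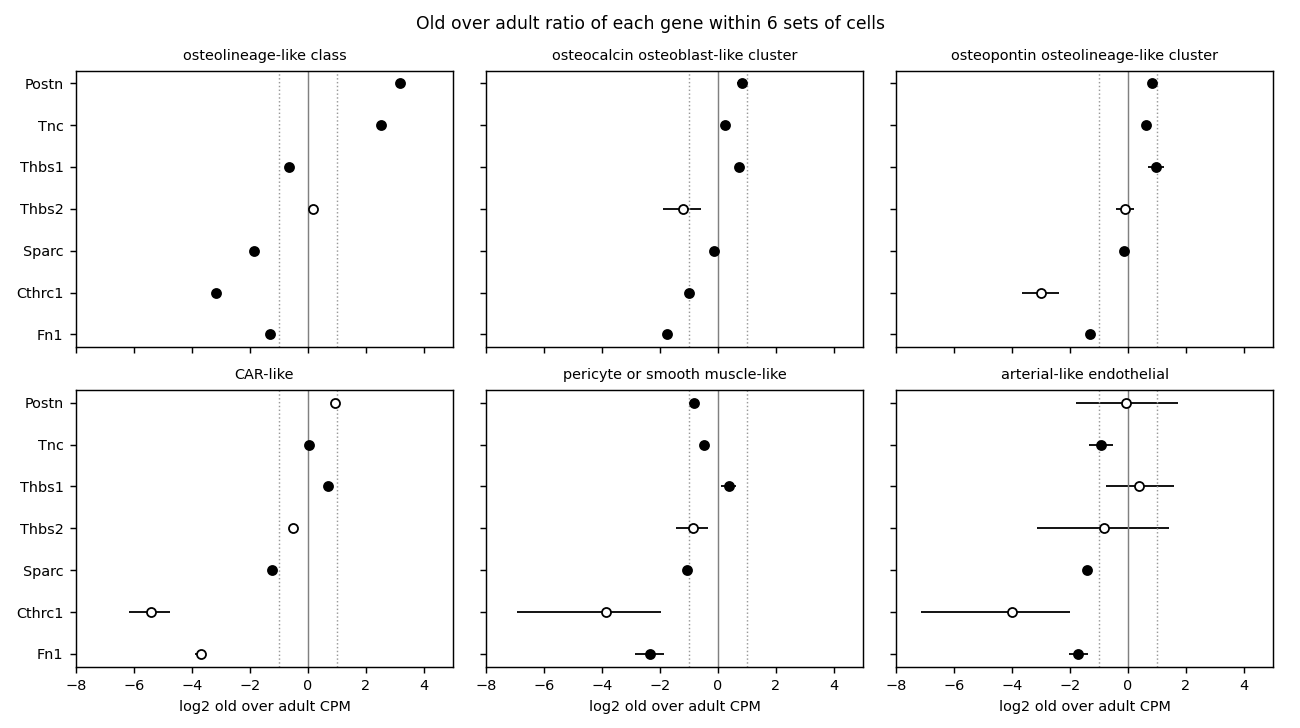
Log2 ratio of old over adult CPM for each gene in 6 sets of cells, with exact conditional binomial 95% intervals for counting error. Filled points passed the minimum of 50 CPM and 50 UMIs, open points did not, and dotted lines mark 2-fold. In the osteolineage-like class Postn is at 3.18 and Cthrc1 at -3.17, whereas within the osteocalcin cluster they are at 0.82 and -0.99.

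Over the whole osteolineage-like class the ratios were far larger. The class had 860 old cells, 79.3% of them in the osteopontin cluster, and 3296 adult cells, 55.3% of them in the Col1a1-Bglap cluster and 34.9% in the osteocalcin cluster. Postn was 1618 CPM in old and 178 CPM in adult cells, a log2 ratio of 3.18, and Tnc 6505 and 1130.4 CPM in old and adult cells, a log2 ratio of 2.52. Sparc, at 8473 CPM in old and 30963 CPM in adult cells, had a log2 ratio of -1.87. Cthrc1 had 78.8 CPM in old and 707 CPM in adult cells, a log2 ratio of -3.17. Fn1 had a log2 ratio of -1.29.

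At the level of the class 2 of the 7 genes were higher and 3 lower in old cells, of 6 past the minimum, where 10.2% of 3846 genes were higher and 4.0% lower. Of these 5 genes, Fn1 was also past 2-fold within the osteocalcin cluster and within the osteopontin cluster, whereas Postn, Tnc and Sparc were under 2-fold in both. Cthrc1 was just under 2-fold in the osteocalcin cluster (-0.99). In the osteopontin cluster it was past 2-fold (-3.00, 95% interval -3.67 to -2.37), but under the minimum of 50 CPM. Thbs1 had a log2 ratio of -0.64 in the class, opposite in sign to 0.73 and 0.96 within these clusters. The class ratios therefore compare different clusters as well as libraries.

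Further lists of genes with linked roles were described in the same cells, and their medians are log2 ratios of old over adult. Within the osteopontin cluster, 1 of 8 measured matricellular relatives was at least 2-fold higher in old cells, Spon1, which encodes F-spondin, at 308 CPM in old and 41.5 CPM in adult cells. Of 9 measured receptors, 2 were higher, the integrin genes Itgb3 (1.22) and Itgb5 (1.20), whose products pair with the alpha-v chain and bind periostin and other matrix ligands, and 0 were lower. Of 8 crosslinking and activating enzymes, the secreted kinase gene Fam20c was higher (1.24) and 0 were lower. Of 12 partner matrix genes 0 were higher and 2 lower, Col3a1 (-3.93) and Lum (-2.15), which encode a fibrillar collagen and lumican. Of 9 TGF-beta ligands and readouts 0 were apart. The list medians were -0.05, 0.26, 0.33, -0.19 and 0.07 in that order, beside -0.05 over all 3977 genes.

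Within the osteocalcin cluster Spon1 was again the 1 matricellular relative apart, of 6 measured, at 61.4 CPM in old and 22.3 CPM in adult cells. Of 12 partner matrix genes 4 were lower in old cells, Col3a1 (-4.10), Col12a1 (-1.20), Col6a1 (-1.20) and Lum (-1.07), and 0 were higher. None of the 7 receptors, 8 enzymes or 6 TGF-beta genes measured there was 2-fold apart. The list medians were -0.26 for relatives, -0.23 for partner matrix, 0.08 for receptors, -0.19 for enzymes and -0.38 for TGF-beta genes, beside -0.01 over all 3041 genes.

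In CAR-like cells Spon1 was higher in old cells, at 451 CPM in old and 154 CPM in adult cells, the 1 relative apart of 6 measured. Of 12 partner matrix genes the decorin gene Dcn was higher (1.67) and 3 were lower, Col1a1 (-2.75), Col3a1 (-2.00) and Col12a1 (-1.39). Col1a1 was also lower in old erythroid-like cells, at 17.9 CPM in old and 519 CPM in adult cells, with median depths of 52579 and 7573 UMIs. The part of background in its CAR-like ratio was not tested. None of 8 receptors, 10 enzymes and 9 TGF-beta genes was 2-fold apart. The list medians were -0.55 for relatives, -0.67 for partner matrix, 0.07 for receptors, -0.11 for enzymes and 0.22 for TGF-beta genes, beside 0.01 over all 4180 genes.

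In the osteolineage-like class, whose clusters differ between libraries, 3 of 8 relatives were higher (Spon1 at 2.82, Ccn5 at 1.25 and Ccn2 at 1.15) and Ccn1 was lower (-1.26). Of 9 receptors 3 were higher, Itgb3 (3.06), Itgb5 (3.04) and Itgav (1.20), and 0 were lower. Of 10 enzymes 3 were higher and 3 lower, with Fam20c (2.86) and P4ha2 (-1.63) farthest apart in each direction. Of 12 partner matrix genes 6 were lower, led by Col3a1 (-3.19) and Lum (-2.58), and 0 were higher. Of 9 TGF-beta genes 0 were apart. The list medians were -0.04 for relatives, 0.78 for receptors, -0.41 for enzymes, -0.74 for partner matrix and 0.38 for TGF-beta genes, beside 0.22 over all 3846 genes.

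Across 29 combinations of cell type and library with at least 50 cells, the pattern of Sparc was most like those of Serpinh1 (Pearson r 0.97 on log2(CPM + 10)), a collagen chaperone, Ppic (0.94) and Copz2 (0.92). Cthrc1 was most like Cgref1 (0.95), Cpz (0.93) and Kazald1 (0.91), and Tnc most like Scara3 (0.94), Esr1 (0.93) and Tnfrsf19 (0.91). Postn was most like Vldlr (0.87), Ppfibp2 (0.85) and Dpyd (0.82). Fn1 was most like Gpx7 (0.87), Lum (0.84) and Copz2 (0.84). Thbs1 was most like Smim14 (0.86), Proser2 (0.85) and R3hdm4 (0.85), and Thbs2 most like Dkk3 (0.86), Mfap2 (0.85) and Fzd8 (0.84).

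Among the 7 genes themselves, Sparc and Cthrc1 (r 0.79), Sparc and Fn1 (0.79), Cthrc1 and Fn1 (0.70) and Postn and Tnc (0.69) were the most alike over those 29 combinations, and Thbs1 reached at most 0.26 with any other. These values are descriptions, because the 29 share 2 libraries and their background.

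Within single clusters the genes also ordered cells differently. Among osteocalcin osteoblast-like cells, Cthrc1 rank-correlated with Sparc at rho 0.71 over 77 old and 0.45 over 1151 adult cells, and Tnc with Sparc at -0.48 over old and -0.56 over adult cells. Postn and Tnc there had a rho of 0.39 in old and 0.40 in adult cells. Cells of a cluster share a library and differ in depth, so these are descriptions of these libraries. Cells were ranked by each gene's share of their UMIs. In osteoblast-like cells of both libraries, a higher Sparc share thus tended to go with a higher Cthrc1 share and a lower Tnc share. The median Tnc count there, 3 UMIs, was under the erythroid-like means of 4.16 UMIs in old and 5.99 UMIs in adult cells. The parts of background and depth in the Tnc values were not tested.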

How the data were processed

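For each library the authors deposited a sparse matrix of counts, each a number of UMIs for 1 gene in 1 barcode, not normalized. Per the file headers these came from Cell Ranger 7.0.1, and per the submitters' processing notes from the GRCm39 build. The promoter windows are of another build, RefSeq GRCm38.p6, so no gene coordinates of the deposited counts are given.

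Barcodes with fewer than 500 genes (1754 old and 1582 adult) or over 10% mitochondrial UMIs (1569 old and 1650 adult) were left out of 22298 old and 25635 adult ones. Kept cells were clustered together with scanpy 1.11.5, using log values at 10000 counts a cell, 2000 variable genes without the 7 genes and 5 further lists, 50 principal components, 15 neighbours and the Leiden algorithm at resolution 1. Scrublet called 0 cells in both libraries, which is too few to be credible, and all cells were kept. A cluster was named from marker lists when its score was at least 0.45 and led by at least 0.1. Within a smaller lead it took the name with more markers among its 10 leading genes, as for the Col1a1-Bglap, Mepe-Dmp1 and neutrophil lineage-like clusters. It stayed unnamed if other markers led, fewer than 3 markers were detected or its UMIs were low. These thresholds were set after seeing the data.

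UMIs were summed per type and library and given as CPM with exact Poisson intervals, and shares with exact binomial intervals. With 1 library per age there is no test. The ratio step was tested on simulated data. All 7 genes were described. The genes most alike were the 3 with the highest Pearson r per member, and up to 4 genes farthest apart were named per list. The genes and lists were chosen with earlier results of these data known. Alternatives changed the filters, resolution, variable genes, minimum, scaling, background and cells of each class.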

Additional observations from a re-analysis of the deposited data

How the results depend on the processing

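Counts of genes at least 2-fold apart were 5 for osteolineage-like cells, 1 for CAR-like cells, 1 for endothelial-like cells and 2 for pericytes or smooth muscle. The CAR-like count was 3 when libraries were clustered separately, 2 at a minimum of 10 CPM and 10 UMIs, 0 within the interferon-led cluster and 3 with the Wif1-Alpl cluster counted as CAR-like. The endothelial-like count was 2 without the highest 10% of doublet scores, 2 at the lower minimum and 2 within arterial-like cells. The osteolineage-like count was 1 within the osteocalcin cluster and 1 within the osteopontin cluster. The pericyte or smooth muscle-like count was 1 with the erythroid-like level taken off. Under that setting the 1 gene apart in CAR-like cells was Thbs1, higher in old cells at a log2 ratio of 1.28, and in endothelial-like cells Fn1, higher at 2.38. Adult sinusoidal-like cells averaged 0.138 Fn1 UMIs, under the adult erythroid-like 0.355, so this setting may take off too much. The cause of these shifts was not tested.

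Ratios that changed sign were under 2-fold or under the minimum in the main setting. Postn in CAR-like cells had a log2 ratio of 0.92, but of -1.88 when libraries were clustered separately. Tnc in CAR-like cells ranged from -0.48 to 0.47, Sparc in CAR-like cells from -1.30 to -0.80, and Fn1 in osteolineage-like cells from -1.77 to -1.19 over the alternatives. Within-cluster alternatives and those on doubtful cells were chosen after seeing the data. No paired analysis was possible because each age has 1 library, and no replicate could be left out. Low counts limit Cthrc1 in old cells outside the osteocalcin cluster.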
